A study of Mus musculus with 26 samples.

Results

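Mitochondrial ribosomal protein genes are the nuclear genes whose products, after import, form the ribosome inside mitochondria. They were taken as every row whose gene symbol starts with Mrpl or Mrps followed by a number, and they numbered 75 of the 10104 transcripts listed for either cell type. Of these, 73 were listed for oligodendrocyte progenitor cells (OPCs), 74 for oligodendrocytes (OLs) and 72 for both, and each of the 72 had a half-life in all 5 replicates. By name, 47 belong to the large subunit (Mrpl) and 28 to the small subunit (Mrps).

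The mitochondrial ribosome translates the few mRNAs encoded by mitochondrial DNA, which are core subunits of the respiratory chain, while all of its own proteins are made in the cytosol. It descends from a bacterial ribosome, but it has lost RNA and gained proteins, so its proteins fall into homologs of bacterial ribosomal proteins and proteins specific to mitochondria. Gene names do not always follow the subunit: the products of Mrps18a and Mrps30 sit in the large subunit. The product of Mrps36 is now known as a component of a mitochondrial metabolic enzyme. Myelin-forming cells depend on respiration while they mature, and mutations in several of these genes cause human mitochondrial disease.

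Mouse OPCs of strain 129S/SvEv, derived in culture from epiblast stem cells and grown with bFGF and PDGFA, were compared with OLs made from them in a medium containing T3, noggin, IGF-1, cyclic AMP and NT3. Both were given 5-ethynyluridine (5-EU), a uridine analogue that can be coupled to biotin, for 24 h, the OLs after 40 h of differentiation, and 5-EU was then replaced by uridine for 0, 1, 2, 4 or 6 h. There were 3 OPC and 2 OL replicates, 25 libraries of pulled-down labelled RNA in all, and an OPC control without biotin was not analysed here. Levels are FPKM, which divide the fragments of a transcript by its length and by the library's mapped reads, so genes can be compared per length, and levels after 0 h are scaled to labelled spike-in RNA added to each time point. Where 5 values are given, they are those of OPC cultures 1, 2 and 3 and of OL cultures 1 and 2, in that order.

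The labels were checked against cell type markers at 0 h. The summed level of 8 OL markers was 37.6 to 55.1 FPKM in OPCs, where 2 of the 8 were listed, and 2833 to 6181 FPKM in OLs, where all were listed. The 4 OPC markers summed to 186 to 307 FPKM in OPCs and 501 to 530 FPKM in OLs. Among them Gpr17, a gene of OPCs committed to differentiation, was higher in OLs (5.51 ± 0.20 on the log2 scale, SE, adjusted p 2.52e-06 by limma). Pdgfra, the receptor gene of progenitors, was also higher in OLs, with 26.5, 11.5 and 13.3 FPKM in OPCs and 66.9 and 43.9 FPKM in OLs (adjusted p 0.00591 by limma), against its use as a marker of OPCs. The other 2 were lower on average in OLs and did not pass: Cspg4 had 55.7, 35.7 and 43.9 FPKM in OPCs and 30.7 and 29.9 FPKM in OLs (-0.53, adjusted p 0.0961 by limma), and Ptprz1 had 97.7, 255 and 172 FPKM and 109 and 127 FPKM (-0.46, adjusted p 0.323). The higher sum in OLs was carried by Gpr17, at 5.00 to 6.61 FPKM in OPCs and 323 and 299 FPKM in OLs. The 3 markers of dividing cells summed to 109 to 238 FPKM in OPCs and 21.1 to 53.5 FPKM in OLs. The astrocyte markers summed to 22.9 to 37.0 FPKM in OPCs and 85.9 to 106 FPKM in OLs, with 1 and 3 of 4 listed. The neuron markers summed to 13.2 to 17.4 and 25.9 to 27.7 FPKM, and no microglia or pluripotent marker was listed for either cell type. The part of these cell mixtures in the results below was not tested, and fewer cells making an RNA cannot be told apart from less RNA per cell. The read depth is unknown.

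The promoters are shown first, because members of both subunits share short elements in them. In the RefSeq promoter table (GRCm38.p6), with 300 bases around each gene start, 66 members had an entry. Both strands were searched for CCGGAAG, a site read by ETS factors such as GABP, for GCGCATGC, the core of the site of nuclear respiratory factor 1 (NRF1), and for AAGATGGC, the site of YY1. GABP, NRF1 and YY1 are textbook activators of nuclear genes for mitochondria. CCGGAAG was found in 36.4% of member genes, 21.7% of the 8089 listed genes with a promoter and 9.93% of all 27025 genes in the table. GCGCATGC was found in 12.1%, 6.71% and 3.05%, and AAGATGGC in 18.2%, 5.85% and 3.19%. AAGATGGC holds the letters ATG, and many of its matches in members lay after the RefSeq start. In Mrpl35 (position +24) and Mrpl49 (position +17) this ATG is the annotated start codon. Members had a median 5′ UTR of 79 nt against 174 nt over all matched transcripts, so the windows reach their start codons more often. The part of start codons in the higher share was not tested. At least 1 of these was present in 36 of 66 member genes (54.5%), in 30.9% of listed genes and in 14.9% of all genes in the table. The following windows, upstream of the RefSeq start, belong to members described below that differed between the cell types. Capitals mark the reverse complement of the ETS letters.
Mrps27, ETS, chr13:99344723-99344759, + strand: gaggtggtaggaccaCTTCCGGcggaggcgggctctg
Mrpl52, ETS, chr14:54426847-54426883, + strand: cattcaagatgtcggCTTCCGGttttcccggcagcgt
In both windows the letters read as the reverse complement on the strand of the gene. A match of letters does not show that a factor binds.

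Members also lay close to other gene starts. In GENCODE M21, 23 of 74 matched members (31.1%) had the start of a protein-coding transcript on the opposite strand within 1000 bases upstream, against 1387 of 10090 matched transcripts (13.7%). In 1 such pair both genes were members: Mrpl46 (chr7:78775236-78783089, - strand) and Mrps11 (chr7:78783119-78792989, + strand) start 30 bases apart, and the 29 bases between them, chr7:78783090-78783118 on the + strand, are shown because both genes read outward from them.
Mrpl46-Mrps11: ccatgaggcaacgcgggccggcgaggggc
The labelled RNAs of the pair had different half-lives. Mrpl46, a large subunit protein specific to mitochondria, had half-lives of 1.86, 1.96 and 0.882 h in OPCs and of 1.48 and 3.98 h in OLs. Mrps11, a bacterial homolog in the small subunit, had 6, 2.30 and 6 h in OPCs and 6 h in both OLs, where 6 h is the ceiling of the scale. Mrpl46 was the shorter-lived in each of the 5 replicates.

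The half-lives of the members ran up to the 6 h ceiling in every replicate. The lowest were 0.772, 0.960 and 0.599 h in OPCs and 0.922 and 1.77 h in OLs, above the lowest over all transcripts, which were 0.192 to 0.390 h. The median over the 72 members in OPCs was 3.67, 3.99 and 4.03 h, with a mean of 3.90 ± 0.197 h (SD, n = 3). In OLs it was 5.72 and 6 h, with a mean of 5.86 ± 0.195 h (SD, n = 2). Over all 8112 transcripts the medians were 2.35, 2.08, 2.83, 4.54 and 4.44 h in the same order, so the member median was the higher in every replicate. In percentiles of each replicate's own transcripts, the median member stood at 64.7, 68.2 and 60.2 in OPCs and at 67.1 and 80.6 in OLs. The last value is the rank shared by transcripts tied at the ceiling.

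Transcripts of the cytosolic ribosome and of the respiratory chain were nearly all long-lived. Of the 80 cytosolic ribosomal protein transcripts, 79 were at the ceiling in each replicate, and of 75 nuclear transcripts of oxidative phosphorylation 73 to 75 were. Of the 72 members, 22, 27 and 26 reached the ceiling in OPCs (30.6%, 37.5% and 36.1%) and 36 and 46 in OLs (50% and 63.9%). Of all transcripts, 24.5%, 25.3% and 31.6% reached it in OPCs and 42.3% and 38.8% in OLs.

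**Figure D1:**
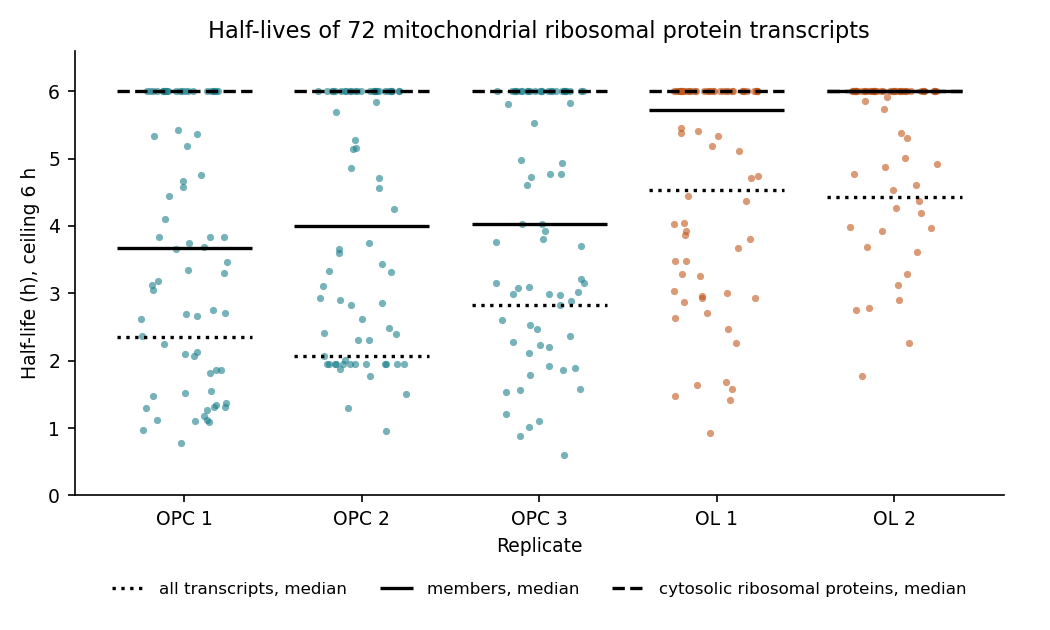
Half-life in hours (y axis, ceiling 6 h) of each of the 72 members (points, spread sideways) in 3 OPC and 2 OL replicates (x axis). Solid lines are member medians, 3.67 to 4.03 h in OPCs and 5.72 and 6 h in OLs, dotted lines the medians of all 8112 transcripts and dashed lines the medians of 80 cytosolic ribosomal protein transcripts, which are all at 6 h.

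At the long-lived end, 11 members were at the ceiling in all 5 replicates (15.3%, against 16.1% of all transcripts). They were Mrpl11, Mrpl13, Mrpl23, Mrpl28, Mrpl30, Mrpl33, Mrpl42, Mrps14, Mrps21, Mrps24 and Mrps33. Their coding lengths ran from 198 nt in Mrpl33 to 774 nt in Mrpl28. In OPCs 13 members, and in OLs 32 of 74, were tied at the ceiling, so no longer-lived member can be singled out. For a transcript at the ceiling throughout, no difference between the cell types can be seen in half-life.

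At the short-lived end in OPCs stood Mrpl19, Mrpl44 and Mrps31. Mrpl19, a bacterial homolog of the large subunit, had half-lives of 1.26, 0.96 and 1.2 h in OPCs and 1.65 and 2.76 h in OLs. Mrpl44, a protein related to ribonucleases that sits near the exit tunnel, had 1.09, 1.3 and 1.1 h in OPCs and 1.41 and 1.77 h in OLs. Both were among the 3 shortest-lived members in OLs as well, and for both the OL values were above all OPC values. Mrpl47 was the other short-lived member in OLs, with 0.922 and 3.93 h, and its OPC values of 0.974, 1.5 and 4.78 h were as far apart.

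Longer members had shorter half-lives. Members were short mRNAs, with a median coding length of 578 nt over 74 matched members against 1404 nt over all 10090 matched transcripts. Their median 3′ UTR was 326 nt long against 1096 nt. Among 71 members with both values, Spearman's rho between coding length and half-life was -0.45, -0.41 and -0.32 in the OPCs, then -0.33 and -0.21 in the OLs (Pearson's r -0.46, -0.36, -0.27, -0.33 and -0.25). These correlations run across genes that share each library and are not independent replicates. For the whole transcript rho was -0.40, -0.44, -0.26, -0.33 and -0.30 in the same order, and for the 3′ UTR -0.29, -0.33, -0.21, -0.29 and -0.29, so coding length cannot be singled out. Over all 8101 transcripts rho with coding length was -0.17, -0.26, -0.18, -0.18 and -0.25.

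Split at the median coding length of 579 nt, the 35 shorter members had median half-lives of 5.36, 6 and 4.97 h in OPCs, and 16, 18 and 16 of them were at the ceiling. The 36 members of 579 nt or more had 2.69, 3.02 and 3.10 h, with 6, 9 and 9 at the ceiling. In OLs the shorter members had medians of 6 h in both replicates and the longer ones 4.91 and 6 h. Over all transcripts, members included, the same split gave medians of 4.34, 5.84 and 6 h in OPCs for 1068 shorter ones and of 2.18, 1.96 and 2.64 h for 7033 longer ones. The shorter members also had more labelled RNA at 0 h, with medians of 32.1 to 39.7 FPKM in OPCs against 27.5 to 32 FPKM for the longer ones. The part of this in the half-lives was not tested.

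**Figure D2:**
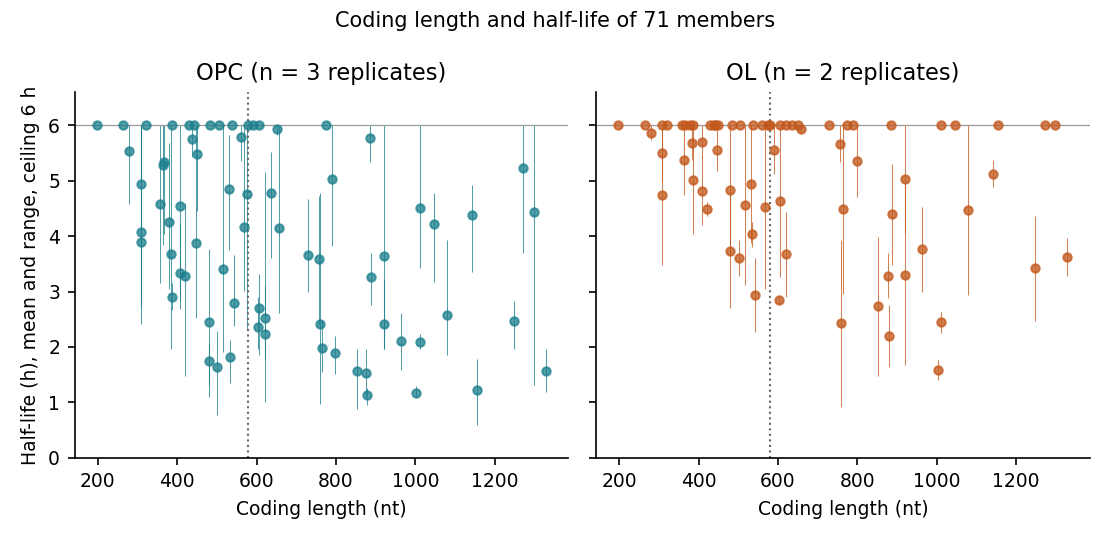
Coding length in nt (x axis) against half-life in hours (y axis, ceiling 6 h, drawn as a line) for 71 members in OPCs and in OLs. Points are means over 3 OPC or 2 OL replicates, bars run from the lowest to the highest replicate, and the dotted line marks the median coding length of 579 nt, with most short-lived members to its right in OPCs.

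Bacterial homologs had higher median half-lives than proteins specific to mitochondria, except in OL culture 2, where both were at the ceiling. The 44 homologs had median half-lives of 4.14, 5.92 and 5.82 h in OPCs and 6 h in both OLs, and the 28 others had 2.64, 2.55 and 3.12 h in OPCs and 4.71 and 6 h in OLs. Their median coding lengths were 576 and 612 nt. By subunit name the order was not constant: large-subunit medians were 3.56, 4.63 and 4.38 h and small-subunit medians 3.83, 3.09 and 3.98 h in the 3 OPC cultures.

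The 3′ UTRs of 9 of 74 members (12.2%) held TGTANATA, the element bound by Pumilio proteins, which promote mRNA decay, against 26.5% of all 10090 transcripts. It was searched on the mRNA strand. Mrpl39 held 5 copies, Mrps35 held 3, Mrpl17 held 2, and Mrpl15, Mrpl22, Mrpl35, Mrpl49, Mrps16 and Mrps23 held 1 each. Mrpl39 also differed between the cell types in slope (0.32 log2 units per h, adjusted p 0.0210 by limma). Most of its 5 copies lie in a repeat of TG and TA letters and are not printed. The sites of Mrpl22, Mrps23 and Mrps16, the other members with the element that differed in slope or level, are given below. The element is in capitals, in the orientation of the mRNA.
Mrpl22, chr11:58179511-58179534, + strand: ctccacggTGTATATAgcttatgt
Mrps23, chr11:88210977-88211000, + strand: tttgaaacTGTAAATAacaccagg
Mrps16, chr14:20391141-20391164, - strand: gagctggaTGTAGATAcctgcttg
The 9 members with the element had median half-lives of 2.76, 3.11 and 3.02 h in OPCs and 3.87 and 4.53 h in OLs. The members without it had 3.83, 4.56 and 4.19 h in OPCs and 6 h in both OLs. Transcripts with the element also had the lower median among all those listed, at 2.04, 1.96, 2.39, 3.00 and 3.33 h against 2.50, 2.28, 3.09, 4.78 and 4.49 h. The 9 members had a median 3′ UTR of 2023 nt against 307 nt for the others, and the part of length was not tested.

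A property of the half-lives touches these values. A fit by least absolute deviations to levels at 1, 2, 4 and 6 h returns the same half-life, 1.96 h, for every transcript whose 1 and 2 h levels lie above the fitted curve and whose 4 and 6 h levels lie below it. In OPC replicate 2, 25.5% of all transcripts were within 0.005 h of this value, against 2.18% and 7.67% in the other OPC replicates and 0.431% and 1.28% in the OLs. Of the members, 11 were at it in OPC replicate 2 (15.3%) and 0 in each other replicate. Other orders of the levels fix 1.86, 0.760 and 0.704 h in the same way. Mrpl46 and Mrps22 in OPC replicate 1 and Mrpl12 in OPC replicate 3 were at 1.86 h, and no member was at the lower pair of values. These half-lives record the order of the levels around the curve and not how far the levels fell. The slopes described below do not have this property.

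Labelled RNA of the members fell through the chase in both cell types, and more remained in OLs. The median member was at 64%, 58.0%, 55.8% and 25.4% of its 0 h level at 1, 2, 4 and 6 h in OPC replicate 1. In OPC replicate 2 it was at 98.7%, 89.4%, 40.2% and 28.9%, and in OPC replicate 3 at 65.6%, 71.7%, 55.3% and 25.6%. In OL replicate 1 it was at 67.5%, 84.3%, 70.5% and 40.6%, and in OL replicate 2 at 102%, 65.6%, 75.1% and 59.6%. At 6 h both OL values were above all 3 OPC values, while at 1 h the replicates of a cell type differed more than the cell types. At 6 h 5, 13 and 10 of 73 members (6.85%, 17.8% and 13.7%) were listed at 0 FPKM in OPCs, against 15.7%, 21.6% and 16.4% of all transcripts. In OLs 0 of 74 were in either replicate, against 4.08% and 0.79%.

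**Figure D3:**
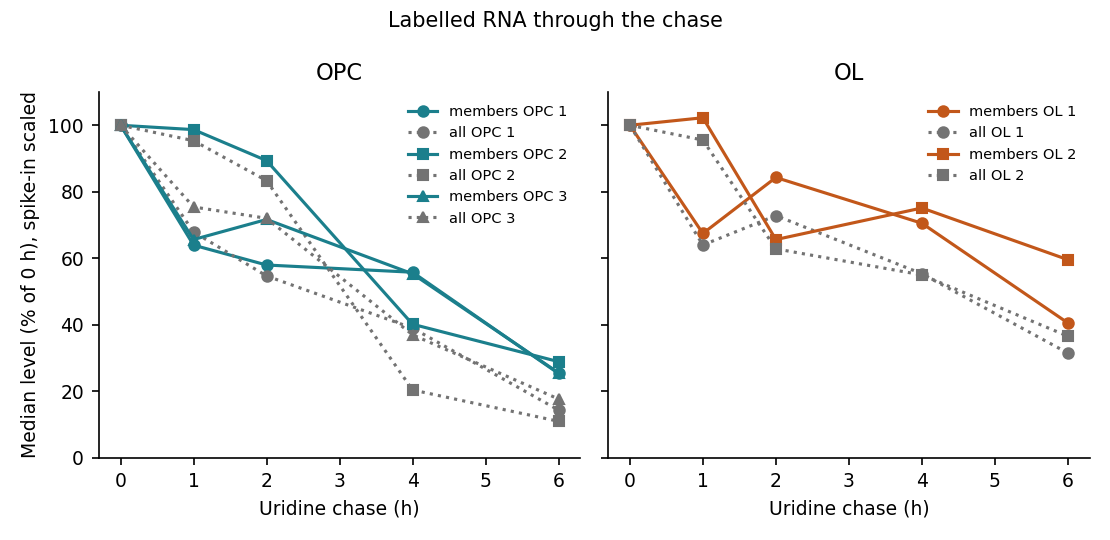
Median level of labelled RNA as a percentage of the 0 h level (y axis, spike-in scaled) against hours of uridine chase (x axis), for members (solid lines) and all transcripts (dotted lines) of each replicate. At 6 h the member medians were 25.4% to 28.9% in OPCs and 40.6% and 59.6% in OLs, each above its replicate's median over all transcripts.

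The fall was tested for every transcript as a slope of log2(FPKM + 1) on time with limma, with p-values adjusted by the Benjamini-Hochberg method over all transcripts. In OPCs 56 of 73 members fell at an adjusted p under 0.05 (76.7%, against 81.9% of all transcripts) and 3 rose (4.11%, against 5.06%). The median member slope was -0.28 log2 units per h, and that of all transcripts was -0.38. In OLs 41 of 74 members fell (55.4%, against 68.9%) and 0 rose (against 1.98%), also with 0 rising at an unadjusted p under 0.05 (against 2.39%), and the median slope was -0.13 against -0.20. These directions hold on the spike-in scale. With each library set to the median of its 0 h library, 38 members rose and 10 fell in OPCs, and 35 rose and 1 fell in OLs. The median member slopes were then 0.16 and 0.10. In that setting 3365 of all 8530 transcripts rose and 1154 fell in OPCs, and 3061 of 9751 rose and 1308 fell in OLs.

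The 3 members that rose in OPCs were Mrpl23 (0.14 ± 0.06 log2 units per h, SE, adjusted p 0.0265), Mrpl28 (0.07 ± 0.03, adjusted p 0.0256) and Mrpl42 (0.07 ± 0.03, adjusted p 0.0482), by limma over 3 replicates. All 3 encode large subunit proteins and were at the half-life ceiling throughout. None of them passed without the 1 h libraries, and 0, 0 and 1 members rose without OPC replicate 1, 2 and 3. In OLs 25 members fell without OL replicate 1.

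Cytosolic ribosomal protein transcripts had a median slope of 0.11 log2 units per h in OPCs, where 68 of 80 rose, and of 0.05 in OLs, where 4 rose. The members therefore lay between these and the average transcript in both cell types. Of the other mitochondrial translation genes, 17 of 17 assembly factors of the ribosome fell in OPCs and 18 of 20 in OLs, with median slopes of -0.60 and -0.29 log2 units per h. Of the genes of mitochondrial DNA and transcription 7 of 7 fell in OPCs and 10 of 10 in OLs, with median slopes of -0.50 and -0.28. Of the translation factors 8 of 11 fell in OPCs and 6 of 12 in OLs, with median slopes of -0.28 and -0.12.

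Whether the half-lives of members differ between the cell types was tested with limma on log2 half-life over all 8112 transcripts. None of the 72 members passed an adjusted p under 0.05 in either direction, while 3.39% of all transcripts were longer and 0.148% shorter in OLs. At an unadjusted p under 0.05, 11 members (15.3%) were longer and 0 shorter in OLs, against 22.2% and 0.801% of all transcripts. The median member difference was 0.39 on the log2 scale, and that of all transcripts was 0.37. Both medians changed sign, to -0.52 and -0.53, when each replicate was centred on its own median. Both OL replicates were above all 3 OPC replicates for 21 members (29.2%, against 35.9% of all transcripts) and below for 0 (against 2.01%). That no member passed does not show that half-lives were equal, and 13 members were already at the ceiling in all 3 OPC replicates.

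The largest member differences, none of which passed, were those of Mrps31, Mrpl40 and Mrpl9. Mrps31, a small subunit protein specific to mitochondria, had half-lives of 1.32, 1.78 and 0.599 h in OPCs and 6 h in both OLs, so the groups did not overlap (2.42 ± 0.56 on the log2 scale, SE, adjusted p 0.125 by limma). Mrpl9, a bacterial homolog, had 1.52, 1.96 and 2.21 h in OPCs and 4.71 and 6 h in OLs (1.51 ± 0.23, adjusted p 0.0670 by limma). Mrpl40 had 1.38, 5.16 and 1.01 h in OPCs and 6 h in both OLs (1.63 ± 0.86, adjusted p 0.4 by limma). The OPC replicates of Mrpl40 were thus more than 4 h apart. With transcripts at the ceiling in all replicates left out of the test, Mrps31 (adjusted p 0.0461 by limma) and Mrpl9 (0.0419) passed, with the same difference.

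In the other direction, the largest differences were small. Mrps10 had 6 h in all 3 OPC replicates and 3.26 and 6 h in OLs (-0.44 ± 0.30, adjusted p 0.518 by limma). It passed without OL replicate 2 (-0.88, adjusted p 0.0184), a fit in which the lone OL value is assumed to vary like the OPC values. Mrps18a had 6 h in OPCs and 5.11 and 6 h in OLs (-0.12, adjusted p 0.518), and Mrpl32 had 1.12, 5.14 and 6 h in OPCs and 1.57 and 6 h in OLs (-0.09, adjusted p 1). For each of these the groups overlapped.

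The slopes use all time points and have no 6 h ceiling, and on them members did differ between the cell types. They have a floor, since a level of 0 FPKM enters as 0 on the log2(FPKM + 1) scale. At 6 h, 5, 13 and 10 members were at 0 FPKM in the OPC replicates and 0 in either OL replicate. Of 72 members, 17 fell more slowly in OLs at an adjusted p under 0.05 (23.6%, against 24.7% of 8177 transcripts) and 0 fell faster (against 0.147%), by limma on 1 slope per replicate. At an unadjusted p under 0.05, 30 members (41.7%) were slower and 0 faster, against 38.5% and 0.575% of all transcripts. The median member difference was 0.16 log2 units per h and that of all transcripts 0.14. The shares of members were near those of all transcripts. Both OL slopes were above all 3 OPC slopes for 32 members (44.4%, against 50.9%) and below for 4 (5.56%, against 3.27%).

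These counts rested on the spike-in scale, on the pseudocount and on the OL replicates. With libraries centred on the 0 h medians, 2 members were slower and 10 faster in OLs. The median difference was then -0.05 for members and -0.07 for all transcripts. Over the 10 alternative settings, as few as 222 of all transcripts were slower and as many as 927 faster. With a pseudocount of 0.1 FPKM, 6 of the 17 were still slower. Without OL replicate 1, 8 members fell more slowly in OLs, and without OL replicate 2, 6 did. Mrpl22 and Mrps30 passed under each of the 10 alternative settings, and Mrps23 under 9 of them.

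Mrpl22, a homolog of a bacterial protein that lines the exit tunnel of the ribosome, had the largest difference. Its slopes were -0.61, -0.88 and -0.89 log2 units per h in OPCs and -0.24 and -0.13 in OLs. The slopes of the groups were well apart, and the difference was 0.60 ± 0.09 (SE, adjusted p 0.000392 by limma). Its size depended on the setting, at 0.39 with libraries centred on the 0 h medians and 0.94 with a pseudocount of 0.1 FPKM. At 6 h, 3.2%, 0% and 0% of the 0 h level was left in OPCs and 39.2% and 58.4% in OLs. The half-lives of Mrpl22 were 1.82, 3.11 and 1.78 h in OPCs and 4.44 and 2.90 h in OLs. They overlapped between the cell types and did not pass (adjusted p 0.391 by limma). Mrpl22 lies at chr11:58171661-58179565 on the + strand, with 7 exons.

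Mrps30, which has a small-subunit name but a place in the large subunit, had slopes of -0.63, -0.95 and -0.86 log2 units per h in OPCs and -0.31 and -0.24 in OLs. Both OL values were above all OPC values, by a difference of 0.54 ± 0.09 (SE, adjusted p 0.000995 by limma), which was 0.32 with that centring and 0.87 with that pseudocount. At 6 h 5.84%, 0% and 0% was left in OPCs and 21.1% and 35.7% in OLs. It lies at chr13:118378381-118387252 on the - strand and has the longest coding sequence of the members, 1329 nt. Its half-lives were 1.19, 1.96 and 1.56 h in OPCs and 3.28 and 3.97 h in OLs, which did not pass (adjusted p 0.114 by limma).

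Mrps22 and Mrps27 encode small subunit proteins specific to mitochondria. Mrps22 had slopes of -0.69, -0.73 and -0.70 log2 units per h in OPCs and -0.39 and -0.05 in OLs (difference 0.48 ± 0.10, SE, adjusted p 0.00272 by limma). Its OPC values were close together and its OL values far apart, and without OL replicate 2 it no longer passed. Mrps27 had -0.58, -0.87 and -0.79 in OPCs and -0.34 and -0.29 in OLs (0.43 ± 0.09, adjusted p 0.00436 by limma), with 0.22 and 0.74 in those 2 settings, in neither of which it passed.

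Mrpl9 had slopes of -0.74, -0.57 and -0.43 in OPCs and -0.23 and -0.11 in OLs (0.41 ± 0.09, adjusted p 0.00416 by limma). Mrps31 had -0.40, -0.68 and -0.52 in OPCs and -0.24 and -0.04 in OLs (0.39 ± 0.11, adjusted p 0.0140 by limma). For both, as for Mrps22 and Mrps27, the OL slopes were above all OPC slopes. Mrps27, Mrpl9 and Mrps31 did not pass without OL replicate 2 or with a pseudocount of 0.1 FPKM. The other members that passed had differences of 0.25 (Mrps6) to 0.39 (Mrpl43). Of these, Mrpl40 and Mrps18b passed in 2 and 3 of the 10 alternative settings, Mrpl40 also not with the replicate block. Of the 17 that passed, 13 were at or above the median coding length of 579 nt. So were 36 of 71 members and 7033 of 8101 transcripts. Whether slower transcripts are more often long was not tested.

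**Figure D4:**
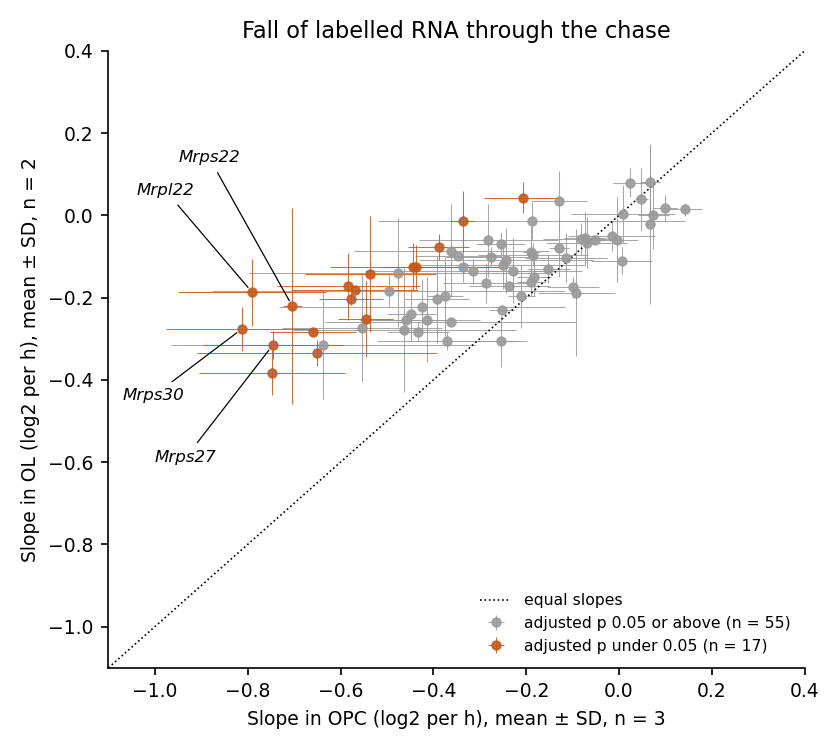
Slope of log2(FPKM + 1) on hours of chase in OPCs (x axis) and OLs (y axis) for 72 members, as means over 3 OPC and 2 OL replicates with SD bars. The dotted line marks equal slopes, the 17 members with an adjusted p under 0.05 are coloured, and all 17 lie above the line, with Mrpl22 and Mrps30 at differences of 0.60 and 0.54 log2 units per h.

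The largest differences in the other direction did not pass. They were those of Mrpl23 (-0.13 ± 0.08 log2 units per h, SE, adjusted p 0.233 by limma), Mrps24 (-0.12 ± 0.07, adjusted p 0.260) and Mrps10 (-0.10 ± 0.09, adjusted p 0.452). Mrpl23 and Mrps24 were at the half-life ceiling throughout. Each of the 3 passed as faster in OLs when libraries were centred on the 0 h medians.

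Against the 24.7% of all transcripts, 10 of 28 members specific to mitochondria (35.7%) and 7 of 44 bacterial homologs (15.9%) fell more slowly in OLs. The median differences of these subgroups were 0.21 and 0.08 log2 units per h, and whether the subgroups differ was not tested. Of the assembly factors of the mitochondrial ribosome, 11 of 17 (64.7%) fell more slowly in OLs and 0 faster, with a median difference of 0.34. The largest were Dhx30, an RNA helicase (0.56 ± 0.07, SE, adjusted p 0.000234 by limma), Mtg1, a GTPase (0.45 ± 0.10), and Rcc1l (0.41 ± 0.11). This count depended on the setting: 1 of 17, Dhx30, passed with libraries centred on the 0 h medians, 5 with a pseudocount of 0.1 FPKM, 5 without OL replicate 1 and 2 without OL replicate 2. Of the translation factors 3 of 11 (27.3%) did, and of the genes of mitochondrial DNA and transcription 2 of 7 (28.6%), among them Polrmt, the mitochondrial RNA polymerase (0.32 ± 0.10, adjusted p 0.0290 by limma). In both of these lists 0 genes were slower under each of those 4 settings, and with the replicate block 1 of 11 translation factors, Taco1, and 3 of 7 of the others were. Polrmt was also longer in half-life in OLs (adjusted p 0.0281 by limma), with 1.80, 1.96 and 1.86 h in OPCs and 3.49 and 3.19 h in OLs. Its values in OPC replicates 2 and 3 are fixed values described above, so their small spread does not measure the spread of the levels. Also longer was Oxa1l, which inserts newly made proteins into the inner membrane, with 3.13, 3.17 and 3.03 h in OPCs and 6 h in both OLs (adjusted p 0.00504 by limma). Both OL values of Oxa1l are at the ceiling, so the spread between them was not measured. The half-life calls were not stable: Polrmt passed in 1 and Oxa1l in 6 of 12 alternative settings, and neither passed when replicates were centred on their medians.

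Labelled RNA at 0 h reflects what was made and kept during the 24 h of labelling. It was lower in OLs for part of the members. Of 72 members, 9 were lower at an adjusted p under 0.05 (12.5%, against 17.5% of 8177 transcripts) and 0 higher (against 14.1%), by limma on log2(FPKM + 1). At an unadjusted p under 0.05, 21 members (29.2%) were lower and 0 higher, against 23.6% and 19.9% of all transcripts. The median member difference was -0.31 and that of all transcripts -0.01 on this scale, which understates changes of low genes. The member median was -0.19 without OPC replicate 1 and -0.41 without OPC replicate 2. Both OL replicates were below all 3 OPC replicates for 29 members (40.3%, against 31.4%) and above for 2 (2.78%, against 28%).

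The count of lower members was 16 without OPC replicate 2 and 4 without OPC replicate 3, and it also fell without either OL replicate. The count over all transcripts changed with the replicate left out as well, and whether members changed more was not tested. Mrpl12 and Mrpl42 passed under each of the 10 alternative settings, and Mrps18b and Mrps27 under 9. The cytosolic ribosomal protein transcripts were lower in 67 of 80 cases (83.8%), with a median of -0.80, and those of oxidative phosphorylation in 8 of 75 (10.7%), with a median of -0.15. The summed level of the 72 members was 2323 to 3200 FPKM in OPCs and 2103 and 2147 FPKM in OLs, and that of all transcripts was also lower in OLs, at 385678 to 426399 FPKM in OPCs and 330652 and 319584 FPKM in OLs.

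Mrpl12, whose product forms the flexible stalk of the large subunit, differed the most. Its level at 0 h was 98.0, 73.3 and 107 FPKM in OPCs and 29.5 and 43.5 FPKM in OLs. No OL value reached an OPC value, and the level was 2.52-fold higher in OPCs on the log2(FPKM + 1) scale (-1.33 ± 0.23 on the log2 scale, SE, adjusted p 0.00281 by limma). Its labelled RNA also fell more slowly in OLs, with a slope difference of 0.32 ± 0.07 log2 units per h (adjusted p 0.00416 by limma), a call lost without OL replicate 1 and with libraries centred on the 0 h medians. Its half-lives were 3.31, 2.93 and 1.86 h in OPCs and 6 h in both OLs, which did not pass (adjusted p 0.144 by limma). Mrpl12 lies at chr11:120484613-120489065 on the + strand, with 5 exons.

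Mrps18b is 1 of 3 members related to a single bacterial protein. Its level was 47.0, 37.8 and 31.5 FPKM in OPCs and 14.3 and 17.1 FPKM in OLs, well apart (-1.24 ± 0.23, SE, adjusted p 0.00410 by limma). Mrps18a, its relative in the large subunit, had 31.5, 43.8 and 43.9 FPKM in OPCs and 39.9 and 47.8 FPKM in OLs, which overlapped (0.15 ± 0.22, adjusted p 0.625 by limma). Mrps18c, the third, was listed for OLs alone, with 26.9 and 31.2 FPKM and half-lives of 5.65 and 6 h. Mrps18b starts 177 bases from the nearest coding transcript of Ppp1r10 on the other strand, at chr17:35910379-35916389 on the - strand. The sources used here do not say whether reads were counted by strand.

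Mrps27 had 40.3, 28.0 and 32.4 FPKM in OPCs and 17.5 and 11.4 FPKM in OLs (-1.18 ± 0.26, SE, adjusted p 0.00870 by limma). By the mean over all 5 replicates, though not by the OL mean, Mrpl52 was among the 3 most abundant members. It had 134, 92.8 and 120 FPKM in OPCs and 48.2 and 68.0 FPKM in OLs (-0.99 ± 0.22, adjusted p 0.00952 by limma). In both cases the groups did not overlap. The promoters of both hold the ETS letters shown above. They are among the 4 of 7 lower members with a promoter entry that do, while Mrpl12, Mrpl28 and Mrpl42 do not.

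Mrpl42 had 63.4, 70.2 and 65.9 FPKM in OPCs and 36.3 and 31.4 FPKM in OLs (-0.95 ± 0.18, SE, adjusted p 0.00386 by limma), with little spread in either group. Its half-life was at the ceiling in all 5 replicates, so a difference in half-life could not be seen. Mrpl38 had 53.8, 30 and 43.8 FPKM in OPCs and 19.1 and 25.3 FPKM in OLs (-0.88 ± 0.27, adjusted p 0.0336 by limma). It passed in 6 of the 10 alternative settings, and not without either OL replicate. The remaining 3 were Mrps16 (-0.64), Mrpl28 (-0.59) and Mrpl13 (-0.55), which passed in 6, 5 and 3 of the 10. Mrpl28 and Mrpl13 were also at the half-life ceiling throughout.

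**Figure D5:**
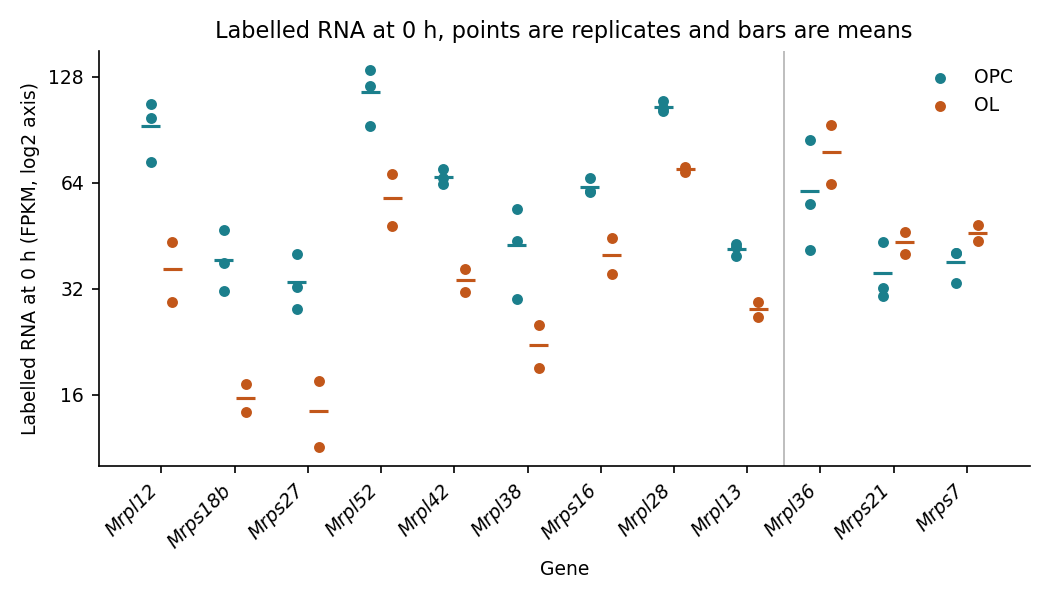
Level of labelled RNA at 0 h in FPKM (y axis, log2 scale) for the 9 members lower in OLs, left of the line, and the 3 members with the largest differences in the other direction, right of it, none of which passed. Points are 3 OPC and 2 OL replicates and bars are means, with no overlap between the cell types left of the line. Mrpl38, Mrps16, Mrpl28 and Mrpl13 passed in 6, 6, 5 and 3 of 10 alternative settings.

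The largest differences upward were Mrpl36 (0.40 ± 0.30 on the log2 scale, SE, adjusted p 0.328 by limma), Mrps21 (0.30 ± 0.22, adjusted p 0.314) and Mrps7 (0.27 ± 0.19, adjusted p 0.3), and none passed. Mrps7, a small subunit homolog, had 40.4, 33.4 and 40.5 FPKM in OPCs and 48.5 and 43.8 FPKM in OLs, without overlap. Mrpl36 had 84.9, 41.2 and 55.9 FPKM in OPCs and 93.2 and 63.5 FPKM in OLs, with overlap.

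Of the other genes of mitochondrial translation, 3 of 11 translation factors (27.3%, against 17.5% of all transcripts) were lower at 0 h in OLs and 0 higher. They were Tsfm, the elongation factor that recharges Tufm (-1.21 ± 0.22, SE, adjusted p 0.0035 by limma), Oxa1l (-0.90 ± 0.22) and Tufm itself (-0.80 ± 0.22). Of the assembly factors, 2 of 17 (11.8%) were lower, Rcc1l (-1.15 ± 0.29, adjusted p 0.0148 by limma) and Noa1 (-0.71 ± 0.23), which passed in 5 of the 10 alternative settings and not with the replicate block. Of the genes of mitochondrial DNA and transcription 1 of 7 (14.3%) was lower, the polymerase gene Polg (-0.88 ± 0.22, adjusted p 0.0139 by limma). Without OL replicate 1 these counts were 1 of 11 (Tsfm), 0 of 17 and 0 of 7. No gene of the 5 mitoribosome proteins with other names passed at 0 h, though Chchd1 and Dap3 were lower without OPC replicate 2. In slope 1 of these 5 (20%, against 24.7% of all transcripts), Gadd45gip1, fell more slowly in OLs. Its difference was 0.37 ± 0.11 log2 units per h (SE, adjusted p 0.0227 by limma), and it passed in 5 of 10 alternative settings.

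Levels at 0 h differed more between members than between cell types. By the mean over all 5 replicates Mrps6 was the most abundant per length. It had 232, 92.5 and 129 FPKM in OPCs and 107 and 181 FPKM in OLs, and replicates overlapped. Mrpl20 followed with 137, 103 and 101 FPKM in OPCs and 112 and 72.9 FPKM in OLs, above Mrps6 in OPC replicate 2 and OL replicate 1. Lowest by the same mean, which pools the cell types, were Mrpl48 (2.97 to 4.74 FPKM over the 5 replicates), Mrpl35 (5.61 to 6.38 FPKM) and Mrpl19 (5.18 to 9.40 FPKM). Their 3′ UTRs were long, at 3557, 3102 and 4090 nt. GENCODE M21 lists pseudogene copies of Mrpl48, Mrpl23 and Mrps36, and reads shared with such copies cannot be told apart here.

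Mrps12, a protein of the decoding centre, passed in no comparison between the cell types. Its levels were 33.5, 21.7 and 24.8 FPKM in OPCs and 24.2 and 23.9 FPKM in OLs (-0.12 ± 0.24 on the log2 scale, SE, adjusted p 0.726 by limma), and its half-lives were 1.48, 3.74 and 4.61 h and 4.37 and 4.61 h. Some members were listed for 1 cell type alone. The authors' filter used levels at 0, 1 and 2 h, so a member that is not listed need not have been under 1 FPKM at 0 h. Mrpl54 was listed for OLs, with 36.8 and 25.8 FPKM and 6 h in both replicates. Mrps9 was listed for OPCs, with 18.6, 17.2 and 19.4 FPKM and half-lives of 2.73, 3.62 and 4.19 h.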

How the data were processed

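The labels gave 26 samples, of which 25 libraries were used. Reads were aligned with HISAT2 2.1.0 and quantified with StringTie 1.3.5 (versions from the submitters' processing notes) over canonical coding transcripts of GENCODE vM9 on GRCm38. The authors deposited FPKM values, removed transcripts under 1 FPKM at 0 h or without signal at 1 and 2 h, and scaled levels after 0 h to spike-in RNA, so each library has 1 scale factor shared by all transcripts. The half-lives (unit: other, in h) were deposited by the authors from a least-absolute-deviation fit of a single exponential, and values above 6 h, the ceiling, were set to 6 h. A refit fell within 0.05 h for 98.2% to 99.9% of transcripts of a replicate.

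Read counts are not part of these values, so no counting error is given, and replicate number limits the precision. Half-lives (log2), 0 h levels and per-replicate slopes were compared with limma 3.58.1 in R 4.3.3, and declines were fitted with replicate as a term. FPKM entered as log2(FPKM + 1). P-values were adjusted over all transcripts at a threshold of 0.05 and measure the spread between these samples, which may be technical. Some OPC and OL replicates share their starting culture, and which ones is not given in the sources used here. Background from unlabelled RNA was not subtracted. With 3 replicates against 2, a one-sided exact permutation test cannot go below p 0.1, so none is given.

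Members, gene lists and tests were chosen with earlier results of these data known. Named are members past the threshold (at most the 6 largest changes in each direction, and the 3 largest where fewer than 3 passed), the 3 shortest- and longest-lived in each cell type, the 3 highest and lowest at 0 h, members listed for 1 cell type, and the Mrps18 group, Mrpl12, Mrps12 and Mrps30 (Mrpl58 was not listed). Members outside this rule, such as Mrpl46 and Mrps11, were named after their values were seen. Annotation came from GENCODE M21 (74 of 75 members matched by transcript identifier, Mrpl32 not used) and promoters from RefSeq (66 of 75 by symbol).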

Additional observations from a re-analysis of the deposited data

Results flagged for a closer look

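The fall of labelled RNA through the chase differed between OLs and OPCs, by the test of the difference itself, for 17 of 72 members, all slower in OLs on the spike-in scale. The 6 largest differences, in log2 units per h, were 0.60 for Mrpl22, 0.54 for Mrps30, 0.48 for Mrps22, 0.43 for Mrps27, 0.41 for Mrpl9 and 0.39 for Mrps31. The share of members was 23.6%, and that of all transcripts was 24.7%. No group had the 4 samples that a test for a sample far from the others needs.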

How the results depend on the processing

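The sign of the shared differences rested on the spike-in scale. Centring turned the median member estimates to -0.52 (half-life), 0.16 (decline in OPCs), 0.10 (decline in OLs) and -0.0502 (slope difference), and those of all transcripts to -0.53, 0.0612, 0.0327 and -0.0681. It left 38 members rising and 10 falling in OPCs, 35 rising and 1 falling in OLs, and 2 slower and 10 faster in OLs. Over all transcripts it left 3365 rising and 1154 falling in OPCs and 3061 rising and 1308 falling in OLs. Up to 927 of all transcripts were faster in OLs in any setting. As percentile ranks, the medians of half-life were -0.31 points (members) and -2.35 points (all). With libraries scaled to a mean decay curve 1 member was longer-lived in OLs, and 2 were without transcripts at the ceiling in all replicates. Without a variance trend 5 members were lower at 0 h, without the 1 h libraries 0 rose in OPCs, and with a pseudocount of 0.1 FPKM 6 fell more slowly in OLs. Leaving out 1 replicate gave 0 to 1 members longer and 0 to 1 shorter in half-life, 3 to 16 lower and 0 to 1 higher at 0 h, 0 to 1 rising in OPCs, 25 to 33 falling and 0 to 1 rising in OLs, and 6 to 20 slower in OLs. Mrpl32, which passed nowhere, turned to 0.36 with the replicate block and to values from -1.05 to 0.88 without single replicates, of 0.24, 0.36 and 0.88 without OPC replicate 2, OPC replicate 3 and OL replicate 1. In slope, Mrps10 ran from -0.204 to 0.0131 without single replicates, the latter without OL replicate 1. The cause was not tested.

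OPC and OL replicates share numbers, but the study does not say which came from the same cells. The deviations of same-numbered samples correlated at 0.06 and 0.01 at 0 h. They correlated at -0.002 and -0.105 in log2 half-life and at -0.026 and -0.101 in slope. With 2 OL replicates, the deviations of OL 1 and OL 2 are mirror images, so these values say little about pairing. With the replicate block, 0 members differed in half-life, and Polrmt and Oxa1l lost their calls in half-life, Oxa1l, Gfm2 and Eral1 theirs in slope, and Noa1 its call at 0 h. With it, 7 members were lower at 0 h, with Mrps16, Mrpl28 and Mrpl13 no longer among them, and 25 fell more slowly in OLs, 16 of the 17 among them and Mrpl40 not.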
